A study of Mus musculus with 24 samples.

Results

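The comparison is between cells that made the C2 mutant of NIPBL and cells that made wild-type NIPBL. Its members are 8 of the 24 libraries of the series, the 4 titled for C2 with IPTG and the 4 titled for wild type with IPTG, compared within each of 2 treatments and averaged. All are from 3134 cells, a mouse mammary adenocarcinoma line. In all 8, IPTG induced a hairpin RNA that targets NIPBL, and a piggyBac construct supplied C2 or wild-type NIPBL. They were kept for 3 days in charcoal-stripped serum with 1 mM IPTG. They then received ethanol, the solvent, or 100 nM dexamethasone, a synthetic glucocorticoid, for 2 hours. Each of the 4 groups (C2 in ethanol, C2 in dexamethasone, wild type in ethanol, wild type in dexamethasone) has 2 libraries. The other 16 libraries are the C1 and C1-C2 mutants with IPTG and an empty vector with and without IPTG, in the same treatments.

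The labels name the mutants without saying what they change. They give 1 line per construct, so a difference between the C2 and wild-type constructs and a difference between the 2 lines that carry them cannot be told apart. Nor do they state whether the replicate libraries came from different cultures. The p-values therefore speak to the spread among these libraries, which may be technical. In bulk RNA, fewer cells of a kind and less RNA per cell cannot be told apart either.

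NIPBL, with its partner MAU2, loads the ring-shaped cohesin complex onto chromatin and drives the extrusion of DNA loops. Loops bring enhancers and promoters together, and genes that rely on distant enhancers, above all the clustered protocadherins, are known to depend on this machinery. Protocadherins are cell surface adhesion proteins made from 3 neighbouring clusters, alpha, beta and gamma, in which each promoter gives its own isoform. The glucocorticoid receptor is a transcription factor that enters the nucleus with its hormone and acts at enhancers.

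The C2 and wild-type libraries hold 34241415 to 64233056 counts. The first wild-type dexamethasone library stood apart: its group had the highest chi-square per degree of freedom between replicates, 22.9 against 5.92 to 16.4 in the other 11 groups. It also had the largest share of counts in gene models of the GENCODE type TEC, which await experimental checks, 0.253%, against 0.141% to 0.211% in the other 7 libraries of the comparison. Results that rest on it are given with and without it. The contrast of GC-rich against GC-poor genes also differed in dexamethasone, 0.06 and 0.10 in the wild-type libraries against 0.21 and 0.26 in the C2 libraries on the log2 scale. Counts with a trend in length and GC content removed are given where they differ. The 12 mesenchymal markers, led by Vim, summed to 5226 to 5597 CPM (counts scaled to a common library total) in the wild-type libraries and 5640 to 5985 CPM in C2. The higher sum was not shared by all members. Of 8 tested, 2 were higher and 2 lower in C2, beside 6.87% and 5.98% of all genes, with a median log2 change of 0.05. Thy1 and Lum had 0 counts in every library of the comparison. The 6 basal markers summed to 20.1 to 22.4 CPM in wild type and 13.8 to 17.5 CPM in C2. The part of these differences in the results was not tested. In contrast, the 10 epithelial markers summed to 1.14 to 2.34 CPM, with Epcam and Cldn3 at 0 in every library of the comparison. The defining epithelial markers were thus near 0 in cells labelled as an adenocarcinoma line. The summed levels of 10 immune markers were 8.12 to 10.5 CPM and those of 6 endothelial markers 0.31 to 0.59 CPM.

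Nipbl itself was measured first. It gave 70.4 and 62.7 CPM in the wild-type ethanol libraries and 61.0 and 56.2 CPM in the C2 ethanol libraries, 66.2 and 55.1 CPM in wild-type dexamethasone and 53 and 48 CPM in C2 dexamethasone. The empty-vector cells averaged 181 CPM without IPTG and 63.8 CPM with it in ethanol, and the wild-type and C2 cells stayed near the second value. The counts do not say which construct transcripts they include. The C2 libraries were lower than wild type in both treatments, with a pooled log2 fold change of -0.22 (SE 0.07, edgeR adjusted p = 0.044). The call was lost without the first wild-type library of dexamethasone (adjusted p = 0.20) or of ethanol (0.16). It was also lost without the second C2 library of dexamethasone (0.17) or of ethanol (0.15), and without the first C2 ethanol library (0.053). Mau2 differed by -0.12 on the log2 scale and did not pass the test (SE 0.04, adjusted p = 0.059). Among 15 genes of cohesin, its loader and CTCF, 3 rose and 1 fell, beside 6.87% and 5.98% of all genes. Stag1, a cohesin subunit, gave 162 and 162 CPM in wild type and 212 and 222 CPM in C2 in ethanol, and 140 and 140 against 178 and 178 CPM in dexamethasone. Its groups did not overlap, and the pooled rise was 1.31-fold (log2 0.38, SE 0.04, edgeR adjusted p = 1.1e-07). For the 15 genes, 1 rose and 0 fell without the first wild-type dexamethasone library, the second C2 library of either treatment or the first wild-type ethanol library, and 5 rose and 2 fell without the second wild-type dexamethasone library.

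Across the genome the C2 cells had many small differences from the wild-type cells. Of 16934 genes tested, 2177 (12.9%) passed an edgeR adjusted p of 0.05 with the treatments pooled, 1164 of them higher in C2 (6.87%) and 1013 lower (5.98%). The median size of a called change was 1.17-fold. Changes of at least 2-fold were 41 higher and 121 lower. In 1030 of the 1164 higher genes and 873 of the 1013 lower genes both C2 libraries lay beyond both wild-type libraries in each treatment. Over all 16934 genes tested, 2025 had C2 above and 1757 had C2 below in this sense. A total of 1302 genes were called without the first wild-type dexamethasone library, and 1193 of the 2177 remained with the same direction. The count also moved by over 1.5 times without the second C2 library of dexamethasone (900) or of ethanol (1224), and without the first (1323) or second (1376) wild-type ethanol library.

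**Figure D1:**
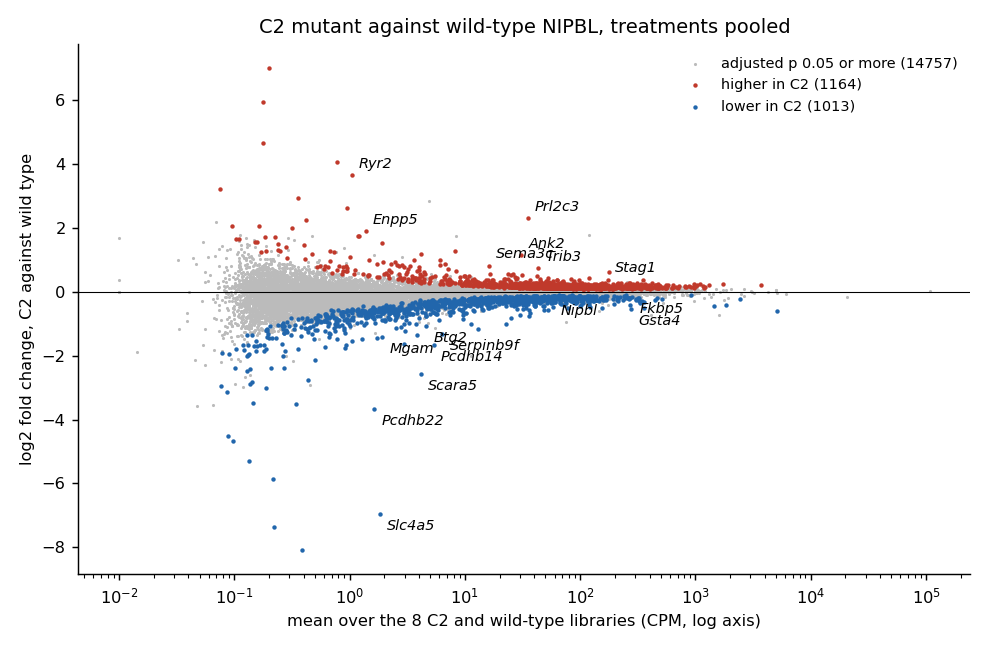
Log2 fold change of C2 against wild type, treatments pooled, for each of 16934 genes (vertical) against its mean CPM over the 8 libraries (horizontal, log axis), with 1164 genes called higher in red and 1013 called lower in blue. Most called genes lie close to 0 and few named genes, such as Slc4a5, Pcdhb22, Scara5 and Ryr2, lie far from it.

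The 2 treatments gave the comparison in separate libraries, with more counts in each dexamethasone library (52229587 to 64233056) than in any ethanol library (34241415 to 40610136). The part of this depth in how many genes were called in each treatment, here and in the gene lists, was not tested. A direct test of the difference between the treatments, given below, passed for 1 gene. In ethanol 339 genes (2.00%) differed, 172 higher (1.02%) and 167 lower (0.986%) in C2. In dexamethasone 875 (5.17%) differed, 438 higher (2.59%) and 437 lower (2.58%). Of these, 212 were called in the same direction in both, which is 62.5% of the ethanol genes and 24.2% of the dexamethasone genes, and 2 in opposite directions. Of the 339 ethanol genes 334 had the same sign in dexamethasone. When a smooth trend with gene length and GC content was removed, the dexamethasone calls became 955, of which 61.6% were higher, against 50.1% of the 875. The balance also turned with the library left out: 89 higher and 138 lower (39.2% higher) without the first wild-type dexamethasone library, 85 and 133 (39.0%) with the trend removed as well, and 569 and 961 (37.2%) without the second. The pooled calls became 2563, of which 62.1% were higher, against 53.5% of the 2177. The dexamethasone count fell to 227 without the first wild-type dexamethasone library and to 135 without the second C2 dexamethasone library, and rose to 1530 without the second wild-type dexamethasone library. The ethanol count fell to 65 without the second C2 ethanol library, and to 132 or 72 without the first or second wild-type ethanol library.

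**Figure D2:**
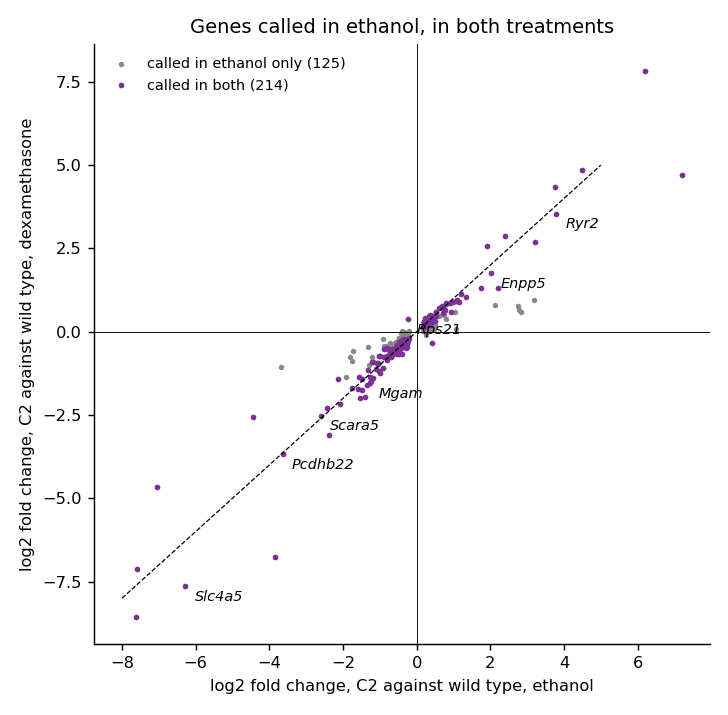
Log2 fold change of C2 against wild type in dexamethasone (vertical) against that in ethanol (horizontal) for the 339 genes called in ethanol. Purple points were called in both treatments, grey points in ethanol only, the dashed line marks equal change, and 334 of the 339 points share a sign.

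Among the 20 gene lists, the clustered protocadherins had the lowest median in C2 against wild type. Of the 58 on the list, 34 passed the filter on low counts, 25 of these were lower in C2 and 0 higher, against 5.98% of all genes lower. The remaining 24 were too low to test, and a member that passed the filter through its wild-type level alone had to be lower in C2, so the count is a description. DESeq2 called 11 of the 25 and gave the other 14 no adjusted p, as it sets genes with low counts aside, and all 25 had a negative change there. Their median log2 fold change was -1.67, beside -0.0022 over all genes tested. With the 9 members that have 3 counts or fewer in some group set to a floor of 3 counts per group, the median was -1.64. By cluster, 10 of 11 beta, 12 of 17 gamma and 3 of 6 alpha isoforms were lower. Without the first wild-type dexamethasone library 19 were lower: 10 beta, 9 gamma and 0 alpha. The alpha isoforms also lost calls without other libraries, down to 1 without the second C2 dexamethasone or the first wild-type ethanol library, and 2 without either C2 ethanol library or the second wild-type ethanol library. These genes lie side by side on chromosome 18, the gamma isoforms share their last exons, and overlapping readthrough models cover them, so reads can be split between members.

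Pcdhb22 had the largest fall among isoforms above 1 CPM. It gave 3.25 and 3.39 CPM in wild type and 0.245 and 0.285 CPM in C2 in ethanol, and 3.20 and 2.30 against 0.316 and 0.0939 CPM in dexamethasone. The groups did not overlap, and C2 was 12.6-fold lower (log2 -3.66, SE 0.31, edgeR adjusted p = 1.1e-07). Pcdhb14 gave 8.97 and 8.11 CPM in wild type and 2.96 and 2.68 CPM in C2 in ethanol, and 7.54 and 7.98 against 2.48 and 2.24 CPM in dexamethasone. It was 3.15-fold lower (log2 -1.65, SE 0.10), and both treatments showed the same size. Pcdhgb7, a gamma isoform, gave 2.68 and 2.67 CPM in wild type and 1.25 and 0.627 CPM in C2 in ethanol, and 2.39 and 2.42 against 1.14 and 0.639 CPM in dexamethasone, a 2.73-fold fall. Pcdhb17 fell 2.78-fold. The C-type gamma isoforms, which stand last in their cluster, did not pass: Pcdhgc3 had a log2 difference of 0.07 with 18519 and 21542 counts in wild-type and C2 dexamethasone, Pcdhgc4 -0.53 and Pcdhgc5 -0.20. Knockdown of NIPBL in empty-vector cells, in other libraries, lowered 9 of the 11 beta and 16 of the 17 gamma isoforms tested, lowered 0 of the 6 alpha isoforms and raised 2 of them. The median log2 change of the alpha isoforms was 0.88 on knockdown and -0.88 in C2 against wild type.

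Of 18 other cadherins tested, 4 rose and 0 fell, beside 6.87% of all genes higher: Pcdh1, Pcdh17, Pcdh18 and Cdh13, with log2 changes of 0.43, 0.25, 0.26 and 0.24. The Pcdh17 and Pcdh18 calls were lost without the first wild-type dexamethasone library (edgeR adjusted p = 0.057 and 0.16). The Pcdh17 call was also lost without the first C2 (0.069) or second wild-type (0.069) ethanol library. That of Pcdh18 was lost without the second C2 library of dexamethasone (0.14) or ethanol (0.16) and the first wild-type ethanol library (0.14).

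Genes that respond to loss of NIPBL were taken from the empty-vector cells, IPTG against no IPTG, whose libraries are separate from those of C2 and wild type. IPTG itself has no control without the hairpin. The knockdown changed 4753 genes (28.1%), 2435 higher (14.4%) and 2318 lower (13.7%). Among protein-coding genes, 79 fell at least 2-fold on knockdown, and 51 of these (64.6%) were lower in C2 than in wild type and 0 higher, with a median log2 fold change of -0.82. Of 180 protein-coding genes that rose at least 2-fold, 40 (22.2%) were higher in C2 and 2 lower, with a median of 0.39. Of 7983 protein-coding genes that the knockdown did not change, 545 (6.83%) were higher and 355 (4.45%) lower, with a median of 0.01. Without clustered protocadherins 35 of 61 lowered genes were lower in C2, with a median of -0.62. Over all lowered genes of any size and type the shift was small: 411 of 2318 were lower and 182 higher, with a median of -0.03. Of 2435 raised genes 412 were higher and 58 lower, with a median of 0.06. Over all genes tested 5.98% were lower and 6.87% higher. Without the first wild-type dexamethasone library, protein-coding genes lowered at least 2-fold had a median of -0.86 and those raised at least 2-fold 0.35. Those that the knockdown did not change had a median of 0.01. Fewer of each set were called in C2 in that fit.

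**Figure D3:**
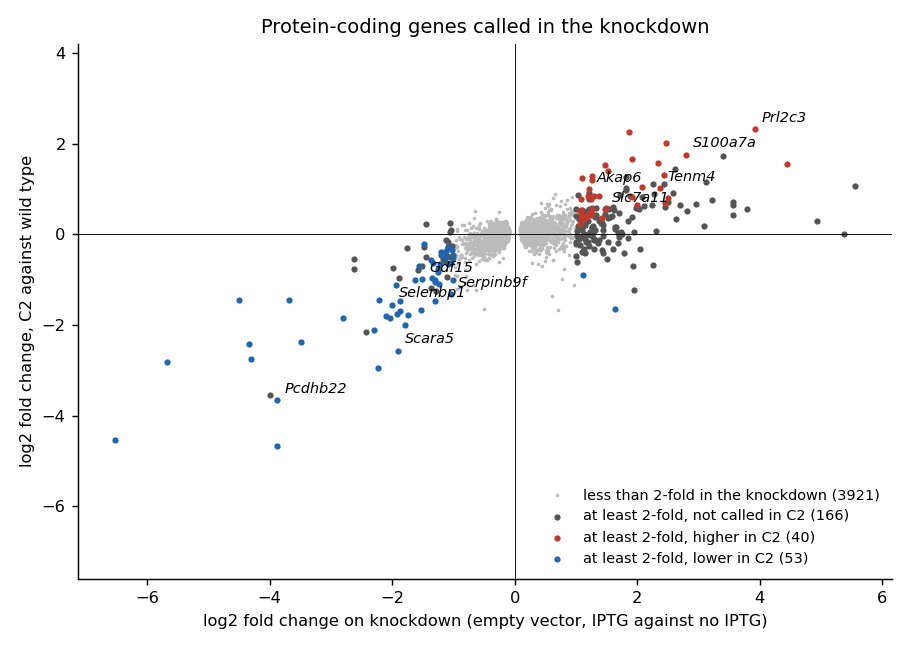
Log2 fold change of C2 against wild type (vertical) against the log2 change on NIPBL knockdown in empty-vector cells (horizontal), for protein-coding genes called in the knockdown. Of the genes that fell at least 2-fold on knockdown, 51 of 79 are blue (called lower in C2) and 0 are red, and of those that rose at least 2-fold 40 of 180 are red.

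Scara5 encodes a scavenger receptor that takes up ferritin, and lies at chr14:65666403-65764826 (mm10). It gave 5.70 and 5.01 CPM in wild type and 1.25 and 0.456 CPM in C2 in ethanol, and 8.56 and 9.34 against 2.17 and 0.864 CPM in dexamethasone. C2 was lower in every library, 5.92-fold (log2 -2.57, SE 0.27, edgeR adjusted p = 4.8e-05). The empty-vector cells averaged 17.7 CPM without IPTG and 4.87 CPM with it in ethanol, and the C1 mutant 1.09 CPM. The knockdown change was -1.91 on the log2 scale.

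Serpinb9f, a serine protease inhibitor gene at chr13:33324077-33335370, gave 10.7 and 8.37 CPM in wild type and 3.74 and 4.19 CPM in C2 in ethanol, and 8.16 and 9.19 against 3.10 and 3.63 CPM in dexamethasone. It was 2.49-fold lower in C2 (log2 -1.32, SE 0.10, edgeR adjusted p = 1.9e-09). Its log2 difference was -1.11 from the C1 mutant and -0.65 from the C1-C2 mutant, and both passed (adjusted p = 4.4e-08 and 0.00055). Its knockdown change was -1.04. Serpinb9f belongs to a family of close copies, so reads may be shared with its neighbours.

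Selenbp1, which encodes a selenium-binding enzyme of sulfur metabolism, was 2.93-fold lower in C2 (log2 -1.55, SE 0.35, adjusted p = 0.0058). Its wild-type dexamethasone libraries gave 3.06 and 2.28 CPM and the C2 ones 1.38 and 0.601 CPM, while the ethanol libraries gave 0.347 and 0.514 CPM in wild type and 0.122 and 0.142 CPM in C2. Smpd2, a neutral sphingomyelinase gene, gave 4.14 and 3.36 CPM in wild type and 1.59 and 1.40 CPM in C2 in ethanol, and 5.15 and 4.36 against 2.48 and 1.82 CPM in dexamethasone, a 2.35-fold fall. It overlaps Mical1 on the opposite strand, and whether strand was used in counting is not given. Gsta4, a glutathione transferase that clears lipid peroxidation products gave 337 and 316 CPM in wild type and 238 and 224 CPM in C2 in ethanol, and 315 and 349 against 231 and 221 CPM in dexamethasone, a 1.44-fold fall (log2 -0.53, SE 0.05, edgeR adjusted p = 8.4e-08).

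Some large falls had no matching fall on knockdown. Slc4a5, a sodium bicarbonate cotransporter gene at chr6:83219828-83304945, gave 3.12 and 3.42 CPM in wild-type ethanol and 3.62 and 4.32 CPM in wild-type dexamethasone. The C2 libraries held 3 counts in ethanol and 2 in dexamethasone against 259 and 434 in wild type. The count ratio of wild type to C2 was 141 with a 95% exact binomial interval of 60.1 to 435, which covers counting error only. Every other construct was low too: the groups of empty vector, C1 and C1-C2 averaged 0.105 to 0.255 CPM, so Slc4a5 was high only in the 4 wild-type libraries of the 24. The log2 difference of C2 was -2.22 from C1 and -2.74 from C1-C2 (edgeR adjusted p = 0.045 and 0.0069), differences that rest on few counts. Its knockdown change was -0.39 (adjusted p = 0.50). Dtna, which encodes alpha-dystrobrevin of the dystrophin complex, gave 5.70 and 5.93 CPM in wild type and 2.42 and 2.54 CPM in C2 in ethanol, and 5.12 and 5.2 against 1.82 and 1.88 CPM in dexamethasone. It was 2.56-fold lower in C2 (log2 -1.36, SE 0.12), while the knockdown raised it by 0.61. The other constructs averaged 1.10 to 2.40 CPM, near the C2 level.

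Mgam, which encodes the starch-digesting maltase-glucoamylase, had the opposite arrangement at chr6:40628831-40769123. Wild type gave 3.07 and 2.88 CPM and C2 1.42 and 1.03 CPM in ethanol, and 2.53 and 2.69 against 0.838 and 0.939 CPM in dexamethasone. C2 was 2.66-fold lower (log2 -1.41, SE 0.16, edgeR adjusted p = 2.2e-06). The C1 and C1-C2 groups averaged 4.89 to 5.24 CPM and the empty-vector groups 2.17 to 2.50 CPM, so C2 was the lowest of all constructs. The log2 difference of C2 was -2.27 from C1 and -2.26 from C1-C2 (edgeR adjusted p = 9.3e-10 and 7.5e-10). Tpsab1, a tryptase gene typical of mast cells, gave 20.7 and 15.1 CPM in wild type and 6.90 and 7.64 CPM in C2 in ethanol, and 18.3 and 17.2 against 6.93 and 10.8 CPM in dexamethasone, a 2.22-fold fall (adjusted p = 0.0039). The empty-vector groups averaged 2.2 to 3.79 CPM, below both.

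Among genes that were higher in C2, Ryr2 had the largest change above 1 CPM. Ryr2 encodes the calcium release channel of heart muscle and spans 554 kb at chr13:11553102-12106945. It gave 0.124 and 0.154 CPM in wild type and 2.01 and 1.91 CPM in C2 in ethanol, and 0.190 and 0.134 against 1.76 and 2.10 CPM in dexamethasone. The wild-type libraries held 29 counts and the C2 libraries 372, a count ratio of 12.6 with a 95% exact binomial interval of 8.64 to 19.1. C1 averaged 0.993 CPM and C1-C2 0.496 CPM in ethanol, so the C2 level was above both other mutants. With the treatments pooled it passed against both (edgeR adjusted p = 0.00069 and 1.3e-07). Short models without proper names overlap Ryr2.

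Ank2, the gene of the membrane adaptor ankyrin-B, spans 578 kb at chr3:126921612-127499350. It gave 19.9 and 17.7 CPM in wild type and 45.9 and 40.4 CPM in C2 in ethanol, and 20.8 and 17.9 against 43.6 and 40.6 CPM in dexamethasone. Every C2 library was above every wild-type library, 2.24-fold (log2 1.16, SE 0.06, edgeR adjusted p = 1.5e-11). C2 was also 1.02 above C1 and 0.64 above C1-C2 on the log2 scale (adjusted p = 3.7e-10 and 4.9e-07). The knockdown did not change it (-0.12, adjusted p = 0.17). Enpp5, of the ectonucleotide pyrophosphatase family, gave 0.471 and 0.565 CPM in wild type and 2.57 and 1.65 CPM in C2 in ethanol, and 0.726 and 0.595 against 2.40 and 2.09 CPM in dexamethasone, a 3.72-fold rise. It too lay above C1, by 1.75, and above C1-C2, by 0.76 (adjusted p = 3.3e-07 and 0.017), with a knockdown change of -0.03. Gng2, a G protein gamma subunit gene, rose 1.92-fold and lay 1.08 above C1 on the log2 scale.

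Other higher genes also rose on knockdown. Tenm4, a teneurin adhesion receptor gene, gave 0.843 and 0.847 CPM in wild type and 1.76 and 1.82 CPM in C2 in ethanol, and 1.14 and 1.07 against 2.17 and 2.10 CPM in dexamethasone, a 2.02-fold rise. The knockdown raised it by 2.38 on the log2 scale. Akap6, which anchors protein kinase A at the nuclear envelope, gave 4.44 and 3.93 CPM in wild type and 9.0 and 8.40 CPM in C2 in ethanol, a pooled rise of 1.99-fold, with a knockdown change of 1.22. Sema3c, a secreted guidance protein gene, gave 14.1 and 12.7 CPM in wild type and 22.9 and 23.7 CPM in C2 in ethanol, and 9.51 and 10.3 against 16.9 and 18.8 CPM in dexamethasone. It rose 1.77-fold (log2 0.82, SE 0.06, edgeR adjusted p = 4.3e-09) and by 0.94 on knockdown. Ceacam3, an adhesion molecule gene, rose 2.89-fold, and S100a7a, of the S100 calcium-binding family, 3.39-fold. Their knockdown changes were 1.47 and 2.79.

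Prl2c3, of the proliferin family, rose 4.98-fold but its C2 libraries disagreed. Wild type gave 9.59 and 10.6 CPM and C2 26.9 and 112 CPM in ethanol, and 14.7 and 11.7 against 34.7 and 61.8 CPM in dexamethasone (log2 2.32, SE 0.46, adjusted p = 0.0072). The family has near-identical copies, so its reads may be split between them. Cpne7, a calcium-dependent phospholipid-binding protein gene, gave 0.273 and 0.308 CPM in wild type and 1.30 and 1.42 CPM in C2 in ethanol, and 0.951 and 0.825 against 1.98 and 2.42 CPM in dexamethasone, a 3.38-fold rise. The empty-vector cells with IPTG averaged 1.07 and 1.95 CPM, near C2.

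**Figure D4:**
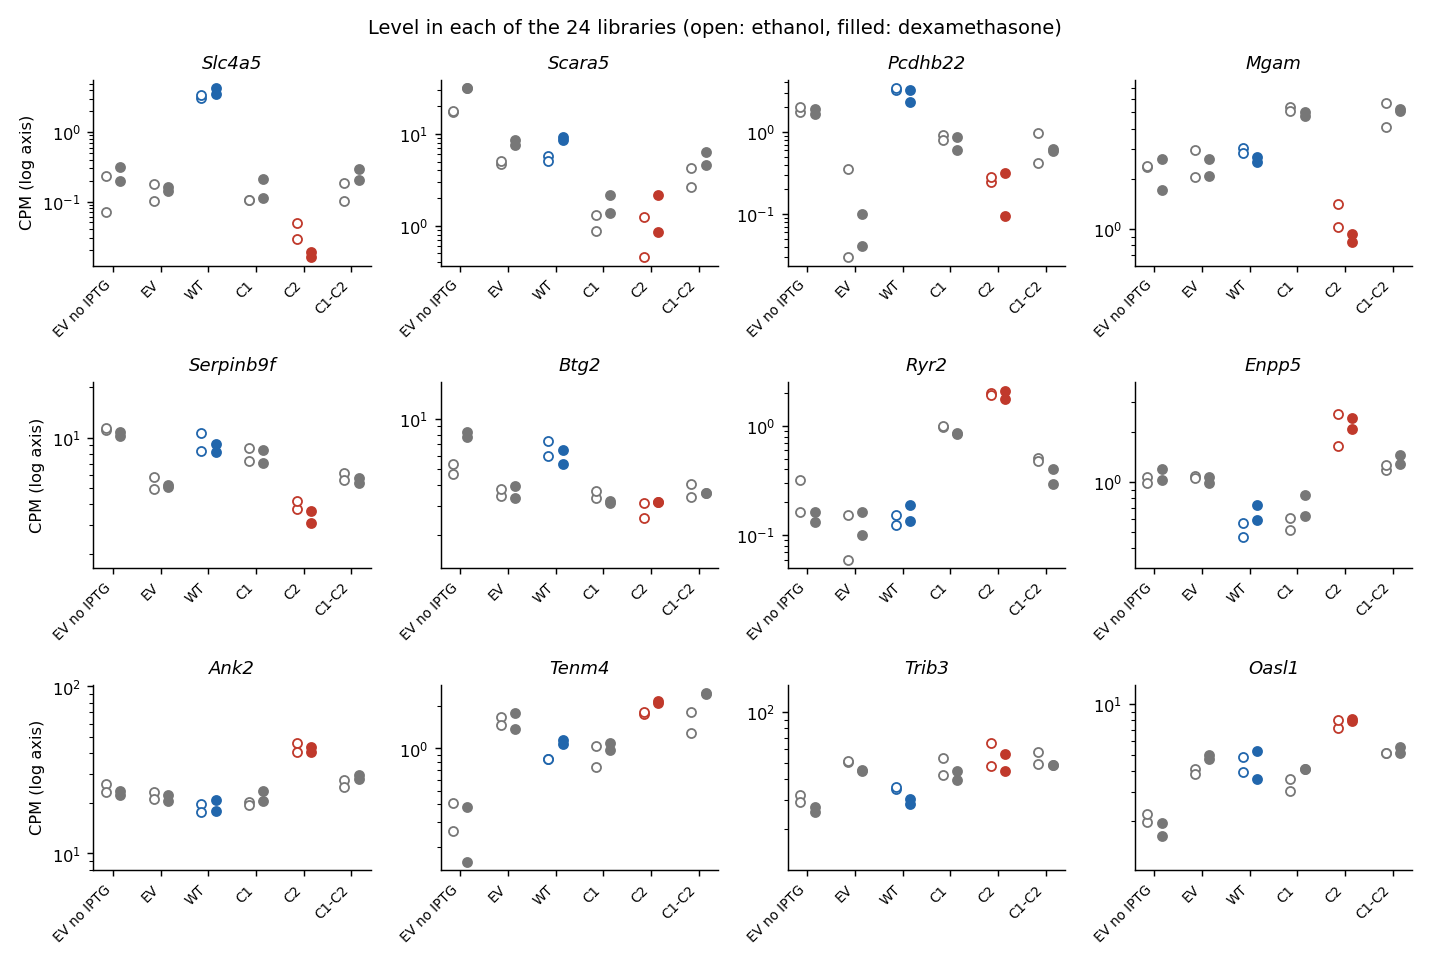
CPM (log axis) of 12 genes in each of the 24 libraries, by construct, with ethanol as open and dexamethasone as filled points, wild type in blue and C2 in red. Slc4a5 is high in the wild-type libraries alone, Mgam is lowest and Ank2 highest in C2, and Pcdhb22 is low in C2 and in empty vector with IPTG.

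The other gene lists describe pathways with smaller shifts. Lists and members were chosen with earlier results of these data known, so their counts and medians are a description. With 1 library left out, the calls over all genes changed too. List counts from such fits therefore do not belong beside the shares of all genes from the fit of 24 libraries. The list of the ATF4 and unfolded protein response has 25 genes, some of which make amino acids or transport them under stress. Of these 25 genes 12 rose in C2 and 0 fell, against 6.87% of all genes higher, with a median log2 change of 0.14. Trib3, a stress-induced pseudokinase gene, gave 34.9 and 35.5 CPM in wild type and 47.5 and 65.7 CPM in C2 in ethanol, and 30.2 and 28.3 against 44.8 and 56.4 CPM in dexamethasone. It rose 1.66-fold (log2 0.73, SE 0.10, edgeR adjusted p = 0.00055). Asns, which makes asparagine, rose 1.23-fold, Mthfd2, of mitochondrial folate metabolism, 1.30-fold, and Psat1, of serine synthesis, 1.17-fold. Slc7a11, the cystine transporter gene, rose 1.47-fold and Chac1, which degrades glutathione, 1.45-fold. Both calls were lost without the second C2 library of dexamethasone (adjusted p = 0.079 for Slc7a11 and 0.096 for Chac1) or of ethanol (0.058 for Slc7a11 and 0.074 for Chac1). The Slc7a11 and Chac1 calls were also lost without the second wild-type ethanol library (0.066 and 0.070), and that of Chac1 without the second wild-type dexamethasone library (0.058). The list had 12 calls without the first wild-type dexamethasone library. It had 8 without the second C2 library of ethanol or dexamethasone and 8 without the second wild-type ethanol library. The knockdown moved 5 of the 25 up and 5 down.

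ATF4 binds a composite element that holds the letters TGATGNAA. These letters occur, on either strand, in 954 of 27025 mouse promoters of RefSeq (3.53%), taken as 250 bases before the start on build GRCm38.p6. Of the 25 list genes 23 have a promoter there and 5 hold these letters, among them 3 of 11 with a promoter that rose. The promoters of Chac1 and Slc7a11 are shown because they are the 2 most raised of these 3, with the matches in capitals.
Chac1, chr2:119350992-119351241, plus strand: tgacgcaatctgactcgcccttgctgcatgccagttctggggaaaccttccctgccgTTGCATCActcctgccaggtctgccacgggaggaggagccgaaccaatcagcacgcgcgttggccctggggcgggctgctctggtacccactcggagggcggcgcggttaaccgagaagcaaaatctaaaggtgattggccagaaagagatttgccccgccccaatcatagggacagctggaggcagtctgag
Slc7a11, chr3:50443614-50443863, minus strand: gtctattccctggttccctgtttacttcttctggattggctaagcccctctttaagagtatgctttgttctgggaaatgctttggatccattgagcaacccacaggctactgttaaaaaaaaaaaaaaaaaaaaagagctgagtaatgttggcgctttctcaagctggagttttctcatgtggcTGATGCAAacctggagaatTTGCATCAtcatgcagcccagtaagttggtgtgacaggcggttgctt
Slc7a11 holds a match on each strand, close together, and Chac1 a single match on the reverse strand. A match describes letters only.

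Of 31 interferon-stimulated genes tested 6 rose and 1 fell in C2, beside 6.87% and 5.98% of all genes, with a median of 0.13. Oasl1, of the antiviral OAS family, gave 3.92 and 4.80 CPM in wild type and 7.24 and 8.03 CPM in C2 in ethanol, and 3.55 and 5.26 against 8.11 and 7.95 CPM in dexamethasone. It rose 1.79-fold (log2 0.84, SE 0.10, edgeR adjusted p = 7.8e-06) and lay 1.09 above C1 on the log2 scale (adjusted p = 2.9e-07). Cxcl10, a chemokine gene, gave 4.86 and 5.39 CPM in wild type and 7.61 and 7.07 CPM in C2 in ethanol, and 1.30 and 1.29 against 2.17 and 2.42 CPM in dexamethasone, a 1.59-fold rise. Ifit1, which binds viral RNA, rose 1.33-fold. The knockdown raised 28 of the 31. The counts were 3 and 1 without the first wild-type dexamethasone library. The count of higher members was 3 without the first C2 or the first wild-type ethanol library, and 10 without the second wild-type dexamethasone library.

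Interferon-response elements hold the letters GAAA in a pair of copies with any 2 bases between them. This motif was found on either strand in 821 of the 27025 promoters (3.04%). Of 23 interferon genes with a promoter 13 hold it, among them 4 of the 6 that rose. Ifit1 and Cxcl10 are shown, since their rise passed with any 1 library left out.
Ifit1, chr19:34640639-34640888, plus strand: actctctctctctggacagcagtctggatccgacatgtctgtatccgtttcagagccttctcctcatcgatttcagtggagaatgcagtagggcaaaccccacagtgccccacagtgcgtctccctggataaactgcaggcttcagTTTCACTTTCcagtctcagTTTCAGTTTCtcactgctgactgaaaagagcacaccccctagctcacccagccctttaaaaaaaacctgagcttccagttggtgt
Cxcl10, chr5:92348890-92349139, minus strand: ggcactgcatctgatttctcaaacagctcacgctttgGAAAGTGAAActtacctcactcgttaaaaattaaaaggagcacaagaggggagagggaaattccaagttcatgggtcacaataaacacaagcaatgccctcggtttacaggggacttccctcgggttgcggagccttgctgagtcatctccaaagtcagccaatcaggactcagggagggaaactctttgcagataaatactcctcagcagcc

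Targets of p53, the DNA damage response factor, moved the other way: 11 of 23 fell and 0 rose, against 5.98% of all genes lower, with a median of -0.16. Btg2, an antiproliferative gene, gave 5.93 and 7.32 CPM in wild type and 3.11 and 2.54 CPM in C2 in ethanol, and 5.34 and 6.50 against 3.15 and 3.16 CPM in dexamethasone. It fell 2.09-fold (log2 -1.07, SE 0.10, edgeR adjusted p = 2.1e-07). Gdf15, a stress cytokine gene, gave 4.02 and 3.00 CPM in wild type and 1.69 and 1.34 CPM in C2 in ethanol, and 1.23 and 0.883 against 0.522 and 0.733 CPM in dexamethasone, a 1.98-fold fall. Plk2, a stress kinase gene, fell 1.32-fold. Cdkn1a, the cell cycle inhibitor p21, gave 97.0 and 82.8 against 69.9 and 63.5 CPM in ethanol but 200 and 212 against 203 and 193 CPM in dexamethasone, with a pooled log2 change of -0.24 (adjusted p = 0.0019). The difference of its effect between the treatments, 0.38 (95% interval 0.18 to 0.57), did not pass over all genes (adjusted p = 0.51). Trp53 itself rose by 0.13 on the log2 scale (adjusted p = 0.019), a call held in 5 of the 8 fits with 1 library left out. The fallen targets numbered 8 without the first wild-type dexamethasone library, 5 without the second C2 dexamethasone or the first wild-type ethanol library, 4 without the second C2 ethanol library and 7 without the second wild-type dexamethasone library.

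Of 15 inflammatory ligands and enzymes 7 fell and 0 rose, beside 5.98% of all genes lower, with a median of -0.19. Ccl2, a monocyte chemokine gene, gave 16.9 and 14.5 CPM in wild type and 9.47 and 9.15 CPM in C2 in ethanol, and 3.18 and 2.26 against 1.80 and 2.10 CPM in dexamethasone. It fell 1.54-fold (log2 -0.62, SE 0.11, edgeR adjusted p = 0.00053), and its knockdown change was -1.04. Cxcl1, a neutrophil chemokine gene, fell 1.38-fold and Cx3cl1, the membrane-bound fractalkine, 1.28-fold. Without the first wild-type dexamethasone library 5 of the list were lower, and 4 without the second library of either wild-type group.

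Of 30 cell cycle genes 11 were higher, 0 lower and 19 did not pass, beside 6.87% of all genes higher, with a median of 0.12. Plk1, a mitotic kinase gene, gave 88.9 and 90.1 CPM in wild type and 103 and 106 CPM in C2 in ethanol, and 96.2 and 98.6 against 108 and 119 CPM in dexamethasone, a 1.17-fold rise (adjusted p = 0.0011). Ccnb1, the gene of cyclin B1, rose 1.15-fold. The median was 0.12 without the first wild-type dexamethasone library and 0.11 without the first wild-type ethanol library. It was 0.09 without the second C2 library of either treatment. Fewer members passed in these fits, and fewer of all genes did. The knockdown lowered 22 of the 30 and raised 0. Replication-dependent histone genes, which lack polyadenylated transcripts, showed 19 of 60 higher and 0 lower, beside the same 6.87%, with a median of 0.15. In dexamethasone 23 were higher, beside 2.59% of all genes, and in ethanol 1, beside 1.02%, while for 0 of the 60 did the difference between the treatments pass. Hist1h2ac gave 46.7 and 40.4 against 41.8 and 46.7 CPM in ethanol, and 22.5 and 24.3 CPM in wild type against 33.9 and 33.9 CPM in C2 in dexamethasone. Hist1h4i differed in both treatments, with 36.8 and 37.2 against 51.8 and 53.5 CPM in ethanol and 32.8 and 34.3 against 46.2 and 47.7 CPM in dexamethasone, 1.41-fold (adjusted p = 1.5e-06). It also lay 0.54 above C1 and 0.63 above C1-C2 on the log2 scale. The dexamethasone histone count was 8 without the first wild-type dexamethasone library and 6 with the trend removed as well. The pooled histone count was 10 without the first wild-type dexamethasone library, 5 or 6 without the second C2 library of ethanol or dexamethasone, 9 without the second wild-type ethanol library and 29 without the first C2 ethanol library. The copies are near-identical, so reads may be split between them. With the length and GC trend removed 20 of the 60 were higher pooled, with a median of 0.15, and 18 in dexamethasone, with a median of 0.24.

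Of 34 collagens, laminins and matrix genes 10 fell and 3 rose, beside 5.98% and 6.87% of all genes, with a median of -0.09. Col6a2, a chain of collagen VI, gave 13.9 and 15.1 CPM in wild type and 8.44 and 5.36 CPM in C2 in ethanol, and 15.9 and 15.3 against 8.73 and 7.25 CPM in dexamethasone. It fell 2.01-fold (log2 -1.01, SE 0.11, edgeR adjusted p = 1.6e-05) and its log2 difference was -0.65 from C1 and -0.79 from C1-C2 (adjusted p = 0.0036 and 0.00093). Its partner chain Col6a1 fell 1.38-fold, Col5a1, of collagen V, 1.32-fold and Thbs2, of the matrix protein thrombospondin 2, 2.18-fold. Without the first wild-type dexamethasone library 6 fell and 3 rose. The lower count was 4 without either second C2 library and 5 without the second wild-type dexamethasone library or either wild-type ethanol library.

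Calls in another 9 lists were mixed in direction or few, beside 6.87% of all genes higher and 5.98% lower. Wnt, TGF-beta and BMP genes showed 5 higher and 3 lower of 29, immediate early genes 2 and 4 of 20, and matrix proteases and inhibitors 2 and 2 of 19. Nuclear receptors showed 2 and 2 of 22, sterol and fatty acid genes 0 and 2 of 26, Notch genes 0 and 1 of 10 and Hox genes 1 and 0 of 27. Ribosomal proteins and mitochondrially encoded genes showed 0 calls among 32 and 15. Of the sterol genes 8 were lower without the first C2 dexamethasone library, and of the ribosomal genes 6 were higher without the second wild-type dexamethasone library. Within these lists Sfrp2, a secreted Wnt antagonist gene, fell 1.32-fold, a call that held with any 1 library left out.

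**Figure D5:**
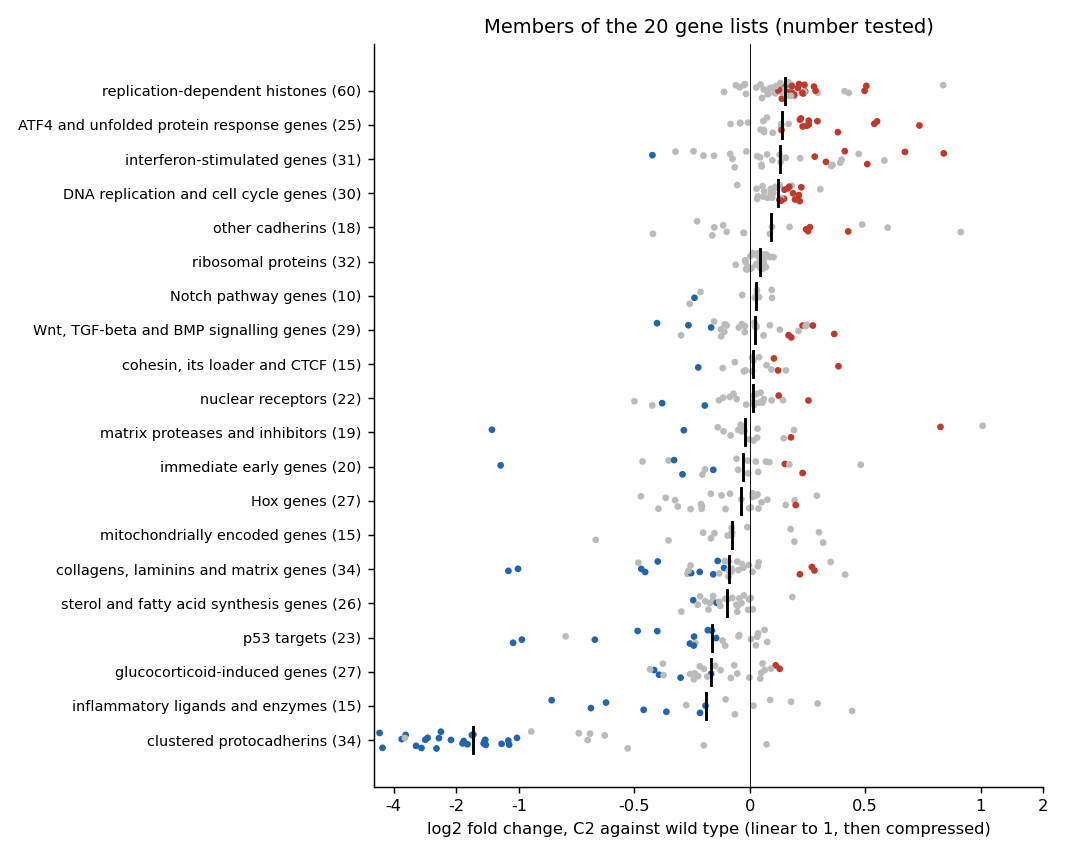
Log2 fold change of C2 against wild type, treatments pooled, for every tested member of the 20 gene lists (horizontal, linear to 1 and compressed beyond), with called members in red (higher) and blue (lower), others in grey, and black bars for list medians. The clustered protocadherins lie far left, with a median of -1.67, while the medians of the other 19 lists lie between -0.19 and 0.15.

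The response to dexamethasone was compared between C2 and wild type by the difference of the 2 treatments. Of 16934 genes 1 passed (0.00591%), Rps21, and 744 genes (4.39%) had an unadjusted p under 0.05. DESeq2 called 6. Rps21, a ribosomal protein gene, gave 235 and 213 against 192 and 186 CPM in ethanol and 148 and 165 against 196 and 208 CPM in dexamethasone, so that C2 was lower in ethanol and higher in dexamethasone. The difference was 0.61 (95% interval 0.42 to 0.80, edgeR adjusted p = 0.011). It was lost without the second C2 library of dexamethasone (adjusted p = 0.16) or ethanol (0.14), the first wild-type library of dexamethasone (0.072) or of ethanol (0.29). Of 32 other ribosomal protein genes 30 had a positive difference, with a median of 0.13 beside -0.02 over all genes, and 0 passed. In dexamethasone 31 of the 32 were positive, and in ethanol 22 were negative. Ribosomal protein genes held 2.36% of counts in the first wild-type dexamethasone library and 2.59% in the second, against 2.64% and 2.61% in C2. With the treatments pooled, the median of the 32 was 0.04, and 0.01 without that first library. The part of that library in the shared shift was not tested. Simulated data had 50 genes changed at each of 1.25-, 1.5-, 2- and 3-fold. There 68% of 1.5-fold and 12% of 1.25-fold differences between treatments were called. But 134 genes passed there against 1 here, and adjustment is stricter when fewer pass. These shares can thus overstate what would be called here, and small differences would mostly be missed.

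Of 27 glucocorticoid-induced genes, 4 fell and 2 rose in C2 with the treatments pooled, beside 5.98% and 6.87% of all genes, with a median of -0.17, and 0 differed between the treatments. Per1, a clock gene, gave 286 and 279 CPM in wild-type dexamethasone and 294 and 289 CPM in C2, and its response differed by 0.00 (95% interval -0.14 to 0.15). Tsc22d3, the leucine zipper GILZ, gave 192 and 217 against 198 and 170 CPM, with a difference of -0.01 (-0.28 to 0.25). Fkbp5, a chaperone partner of the receptor, gave 75.2 and 81.4 against 75.3 and 85.1 CPM in ethanol and 529 and 570 against 445 and 406 CPM in dexamethasone. Its C2 libraries were lower in dexamethasone, with a log2 change of -0.37 (edgeR adjusted p = 0.0075), a call lost without the second C2 dexamethasone library (0.16). The difference of the responses, -0.40 (-0.63 to -0.17), did not pass over all genes (adjusted p = 0.63). Bcl6, a transcriptional repressor gene, fell 1.33-fold. Ddit4, an mTOR inhibitor gene, fell 1.31-fold, a call lost without the second wild-type ethanol library (adjusted p = 0.060). The knockdown lowered 13 of the 27 and raised 6. The higher count was 0 without either C2 dexamethasone library, the second C2 ethanol library, or the first wild-type library of either treatment, and 1 without the first C2 or second wild-type ethanol library. The lower count was 6 without the first wild-type dexamethasone library, 8 without the first C2 dexamethasone library, 2 without the second library of either dexamethasone group and 1 without the second wild-type ethanol library. Nr3c1, the receptor gene, had a log2 difference of 0.09 that did not pass (adjusted p = 0.062).

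Against C1, 214 genes (1.26%) differed, 90 higher (0.531%) and 124 lower (0.732%) in C2. Against C1-C2 92 (0.543%) differed, 38 higher (0.224%) and 54 lower (0.319%). These comparisons share the C2 libraries with the one above. Mgam, Serpinb9f, Ank2, Enpp5, Ryr2, Oasl1, Hist1h4i and Col6a2 passed against both mutants. Scara5 did not pass against C1 (-0.26, adjusted p = 0.92) and did against C1-C2 (-1.88, adjusted p = 0.0056). Gsta4, Btg2, Stag1 and Ceacam3 passed against neither. Their log2 differences from wild type were -0.53, -1.07, 0.38 and 1.53 in C2. In C1 they were -0.48, -0.91, 0.40 and 1.64, and in C1-C2 -0.40, -0.78, 0.29 and 1.54, each against the same wild-type libraries.

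By gene type, of 12163 protein-coding genes tested 1126 were higher and 743 lower in C2 (15.4% called, beside 12.9% of all genes). Of 1123 TEC models 1 was higher and 151 lower (13.5% called), with a median of -0.42, beside 6.87% and 5.98% of all genes. In dexamethasone 68 were lower, beside 2.58% of all genes, and in ethanol 1, beside 0.986%. Without the first wild-type dexamethasone library 27 of 1152 were lower pooled and 2 in dexamethasone, with a median of -0.21. That library held 0.253% of its counts in such models and the second wild-type dexamethasone library 0.163%, against 0.146% and 0.141% in the C2 dexamethasone libraries. In ethanol the shares were 0.211% and 0.184% in wild type and 0.159% and 0.172% in C2. In the fifth of genes with lowest GC content (3387 genes) 91 were higher and 316 lower, and 395 and 164 after removal of the length and GC trend. In the fifth with highest GC content (3387 genes) the numbers were 304 and 156, and 268 and 227. Over all 16934 genes they were 1164 and 1013, and 1591 and 972 with the trend removed. Of 248 genes that span 300 kb or more, 26 were higher and 24 lower (20.2% called, beside 12.9% of all genes).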

How the data were processed

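RNA-seq libraries (Illumina Stranded Total RNA with Ribo-Zero Plus, per the labels' protocols) were made from 24 samples. The deposited values are raw counts per gene that the authors made: per the submitters' processing notes the tools were bcl2fastq 2.20, cutadapt 1.18, STAR 2.7.0f, featureCounts and Subread 2.0.3 on build mm10. The annotation release, strand setting and handling of multiply mapped reads are not given in the sources used here.

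Groups came from the sample titles. One C1-C2 ethanol library has a treatment label that disagrees with its title, and was left out in an alternative. edgeR 4.0.16 (R 4.3.3; TMM, quasi-likelihood test, robust) was fitted to 12 group means over 24 libraries with 12 residual degrees of freedom, on 16934 genes after 38407 with low counts were removed. The C2 and wild-type difference was averaged over the treatments. Benjamini-Hochberg adjustment ran over all genes tested, with calls made at an adjusted p below 0.05. CPM were computed from the counts with TMM-scaled library sizes. There were 7 comparisons. The libraries held 32532858 to 72857880 counts. Exact binomial intervals cover counting error only, while intervals of log2 differences come from the edgeR fit and its spread between libraries.

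Named genes were the 12 largest changes each way among called genes averaging 1 CPM or more, with both C2 libraries beyond both wild-type libraries in each treatment, the 4 smallest adjusted p each way, up to 4 called genes per list, and up to 6 for the difference between treatments. Nipbl and Mau2 were always included. Members and lists were chosen with earlier results of these data known. Simulated data had 16685 genes, with 50 changed at each of 1.25-, 1.5-, 2- and 3-fold, drawn from genes at 1 CPM or more. In them 66% of 1.25-fold and 94% of 2-fold pooled changes were called, and 7.53% of calls were false. Alternatives were DESeq2 1.42.0, other scaling and filters, a length and GC trend, a replicate block and leaving out each library.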

Additional observations from a re-analysis of the deposited data

Results flagged for a closer look

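The C2 against wild-type difference of Rps21 changed between dexamethasone and ethanol by 0.61 on the log2 scale (edgeR adjusted p = 0.011), the one gene that passed in the edgeR fit reported, while DESeq2 called 6 genes and a fit with no filter 33. Of 32 other ribosomal protein genes 30 had a difference of the same sign, and 0 passed. Among the dexamethasone libraries compared, the first wild-type one had the lowest ribosomal protein share, 2.36%, and its part in this was not tested. For Rps21, C2 was lower in both ethanol libraries and higher in both dexamethasone libraries. The call was lost without the second C2 library of either treatment or the first wild-type library of either treatment.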

How the results depend on the processing

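The pooled count of 2177 genes became 1234 with only the 8 libraries compared and 1403 with the trend removed and the first wild-type dexamethasone library left out. The ethanol count of 339 became 569 with no filter and 76 with the 8 libraries. The dexamethasone count of 875 became 1540 with no filter, 193 with the 8 libraries and 218 with the trend removed and that library left out. The difference between the treatments gave 6 genes by DESeq2, 2 without the library with disagreeing labels, 33 with no filter and 0 with the 8 libraries. C2 against C1 gave 326 with no filter, and C2 against C1-C2 gave 168 with no filter, 61 with a strict filter and 56 without the library with disagreeing labels. The cause was not tested. Same-numbered C2 and wild-type libraries did not deviate together (r = -0.03 in ethanol and 0.01 in dexamethasone). With a replicate block the counts were 3089 pooled, 683 in ethanol, 1750 in dexamethasone, 8 for the difference and 325 against C1, and with the replicate block within treatment 3077, 642, 1698, 9 and 325. With 1 library left out, the counts ranged from 900 to 2727 pooled, 65 to 409 in ethanol, 135 to 1530 in dexamethasone, 0 to 4 for the difference, 163 to 237 against C1 and 59 to 98 against C1-C2. Genes lowered by the knockdown and lower in C2 ranged from 223 to 546, and those raised and higher from 223 to 474. A lone library left in a group was assumed to vary like the other groups. Of the 89 named genes called, 55 were called with any 1 library left out, and 89 had the same sign under every alternative run.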

Other observations

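Some genes under 1 CPM differed almost completely between the lines. They were chosen after their values were seen. Fa2h, which hydroxylates fatty acids, had 152 counts over the 4 wild-type libraries (0.514 to 1.15 CPM) and 0 over the 4 C2 libraries, at least 51.5-fold lower with a floor of 3 counts over the group (the exact binomial 95% lower bound was 41.4), and 2 counts in the other 16 libraries. Slc27a6, a fatty acid transporter gene, had 82 counts in wild type and 0 in C2, at least 27.8-fold lower with the same floor (exact lower bound 22.1), and 0 in the other 16. Gas7 had 83 and 2 counts, with wild type over C2 at 42.2 (95% exact binomial bounds 11.3 and 354), while Tex101 had 50 and 1, or 50.8 (8.72 to 2048). These 2 were not confined to wild type: the other 16 libraries held 86 counts of Gas7 and 116 of Tex101. Tex101 reached 0.436 CPM in C1-C2, against at most 0.326 CPM in wild type. In the other direction, Ncam1, a neural adhesion molecule gene, had 16 counts in wild type and 276 in C2, a ratio of 17.0 (10.3 to 30.1). Sptb, of the spectrin skeleton, had 2 and 65, a ratio of 32.0 (8.50 to 269). The other 16 libraries held 104 counts of Ncam1 and 15 of Sptb. Line and construct cannot be told apart in these values.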
